A study of Mus musculus with 9 samples.

Results

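Zic1, Zic2, Zic4, Zic5, Pax3 and Pax7 are 6 transcription factor genes of the dorsal neural tube, and their levels were compared between hindbrains of 3 Zfp423 genotypes in the mouse. The members were chosen by gene symbol alone, as 6 of the 48587 genes in the count table, and all 6 were among the 15695 genes with enough counts to be tested. RNA was taken from hindbrains of C57BL/6N embryos on embryonic day 9.5, with 3 libraries per genotype. The wild-type (wt) embryos were littermates. In the d9-20 mutants Zfp423 lacked exon 4, so that its protein was without zinc fingers 9 to 20, and in the d28-30 mutants it lacked exons 6 and 7, so that its protein was without zinc fingers 28 to 30. The labels do not say which mutant line the wt embryos came from, nor whether the 3 libraries per genotype are separate embryos or pools, and p-values rest on the spread among these libraries.

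The Zic genes encode proteins with closely related zinc fingers, kin to those of the GLI factors of Hedgehog signalling. They lie in head-to-head pairs, Zic1 with Zic4 and Zic2 with Zic5, and are transcribed in the dorsal neural tube and its roof, where they act in neural tube closure, in the upkeep of dorsal progenitors and in neural crest formation. Loss of ZIC1 and ZIC4 together is associated in humans with Dandy-Walker malformation of the cerebellum, and mouse Zic1 is needed for normal cerebellar size and folding. Pax3 and Pax7 encode paired-box and homeodomain factors that mark dorsal neural progenitors and the neural crest. Zfp423 is a zinc-finger factor whose loss in mice gives a small cerebellum with a defective midline, so the design puts genes of the dorsal hindbrain beside a gene needed for a tissue that arises from it.

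The Zic genes are alike in sequence, which bears on how reads of 75 nucleotides were assigned to them. No run of 75 nucleotides was shared between annotated transcripts of any 2 of the 6 genes, on the same strand or on opposite strands. The longest run in coding sequence on the same strand was 42 nucleotides, between Zic1 and Zic4. Zic1 and Zic2 shared 35 nucleotides and Pax3 and Pax7 shared 26. On opposite strands Zic1 and Zic4 shared a run of 63 nucleotides, where their annotated exons overlap. The stretch around the core shared by Zic1, Zic2 and Zic4 is shown with the matching stretch of Zic5, each 75 nucleotides long as a read is, from GENCODE M21 transcripts, because it holds the longest same-strand runs that Zic1 shares with Zic2 and with Zic4. Capitals mark bases that differ from Zic1.
Zic1: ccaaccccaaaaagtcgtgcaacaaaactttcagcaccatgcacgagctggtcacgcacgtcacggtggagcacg
Zic2: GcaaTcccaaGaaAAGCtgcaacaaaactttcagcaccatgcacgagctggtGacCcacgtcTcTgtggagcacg
Zic4: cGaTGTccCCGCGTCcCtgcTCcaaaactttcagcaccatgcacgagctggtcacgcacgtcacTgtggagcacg
Zic5: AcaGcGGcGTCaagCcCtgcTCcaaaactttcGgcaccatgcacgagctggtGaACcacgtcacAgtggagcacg
These stretches lie in coding exons at chr9:91364237-91364311 on the minus strand for Zic1, chr14:122476472-122476546 on the plus strand for Zic2, chr9:91379127-91379201 on the plus strand for Zic4 and chr14:122464093-122464167 on the minus strand for Zic5 (GRCm38). They differed from Zic1 at 11 bases in Zic2, 15 bases in Zic4 and 16 bases in Zic5, which is 85.3%, 80% and 78.7% identity.

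Zic1 lies at chr9:91358058-91365810 on the minus strand and Zic4 at chr9:91362413-91389348 on the plus strand, with annotated starts 3397 nucleotides apart. Their annotations overlap, with 60 nucleotides of exon in common on opposite strands, which is 1.05% of the exon length of Zic1 and 0.581% of that of Zic4. Zic4 also shares 468 nucleotides of exon, 4.53% of its length, with the unnamed antisense model Gm37477, which had 9 to 17 counts per library. The libraries were stranded, but the strand setting of the counting is not given in the sources used here, so reads of such overlaps may have been left out or given to either gene. Zic5 lies at chr14:122456795-122465677 on the minus strand and Zic2 at chr14:122475435-122479852 on the plus strand, with starts 9758 nucleotides apart and no overlap. Pax3 lies at chr1:78101267-78197134 and Pax7 at chr4:139737062-139833528, both on the minus strand.

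The libraries held 16903382 to 24216412 counts each, so that 3 counts, taken as a floor, were 0.124 to 0.177 CPM, the count scaled to a library of standard size. The 6 genes had between 164 and 3871 counts per library. Zfp423 itself averaged 108 CPM in the wt libraries (SD 8.66, n = 3), with 169 ± 22.3 in d9-20 and 171 ± 12 in d28-30, counted over the whole gene, so this level does not check the deletions. It was called higher in both mutants, and the call was lost in 10 of 19 alternatives in d9-20, with adjusted p up to 0.287, and in 8 of 19 in d28-30, with adjusted p up to 0.173. One library, d28-30 replicate 2, differed more from the other 8 than they did from each other (chi-square per degree of freedom 27.3 to 63.3), and 2.07% of its counts were mitochondrial, where the others had 0.904% to 1.42%. Libraries also differed in sex-linked genes within each genotype. The summed level of 4 Y-linked genes was 0.0504 CPM in d9-20 replicate 1 and 172 CPM in replicate 3, 0.0592 and 192 CPM in these replicates of d28-30, and 63.2 to 206 CPM in wt, so the libraries of a mutant were not repeats of 1 RNA sample. Replicate 2 of each genotype had both Y-linked counts and Xist, a transcript of females. Xist was at 724 CPM beside 63.2 CPM for the Y-linked genes in wt, 580 beside 115 in d9-20 and 1257 beside 120 in d28-30. In replicates 1 and 3, Xist was at most 3.46 CPM wherever Y-linked genes were present. The replicate 2 libraries thus appear to hold RNA of both sexes, and the number of embryos per library was not tested. Genes of the spinal cord were near 0, with 10 Hox genes of that region summing to at most 1.00 CPM in a library. A set of 12 rhombomere genes of the hindbrain summed to 339 to 395 CPM, with Epha4 the largest part (111 ± 11.9 CPM in wt). Another 12 genes, of the midbrain and isthmus, summed to 624 to 750 CPM, with Nr2f1 the largest part (242 ± 1.51 CPM in wt). The 2 sums thus lean on single genes. The sum of 8 forebrain genes was 6.84 to 9.14 CPM in wt but 15.9 and 20.4 CPM in d9-20 replicates 2 and 3 and 24.7 CPM in d28-30 replicate 3, with 8.10 to 9.19 CPM in the other mutant libraries.

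Among the 6 genes, Zic1 and Zic2 were the most abundant per length and Zic4, Zic5 and Pax7 the least. Level per length depends on the transcript that is used, so 2 lengths were tried, the union of all annotated exons and the principal transcript of each gene. Over the 9 libraries and per kb of exon union, Zic1 was at 25.4 ± 2.02 CPM (SD, n = 9), Zic2 at 20.0 ± 1.86, Pax3 at 9.69 ± 0.626, Pax7 at 5.68 ± 0.549, Zic5 at 4.90 ± 0.574 and Zic4 at 1.39 ± 0.308. Neighbours in this order were apart in all 9 libraries for Zic2 above Pax3, Pax3 above Pax7 and Zic5 above Zic4, and Pax7 was above Zic5 in 7 of 9. Zic1 was above Zic2 in all 9, although their ranges over the libraries overlapped. Zic4 has 12 annotated transcripts, and its place depended on the length. Per kb of the principal transcript, Zic4 was at 5.68 CPM, level with Pax7 at 5.68 and near Zic5 at 5.03, and Pax7 was above Zic4 in 4 of 9 libraries. On that scale Pax3 was at 19.5 CPM per kb, beside 23.6 for Zic2 and 25.8 for Zic1, and Zic1 was above Zic2 in 7 of 9 libraries.

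**Figure D1:**
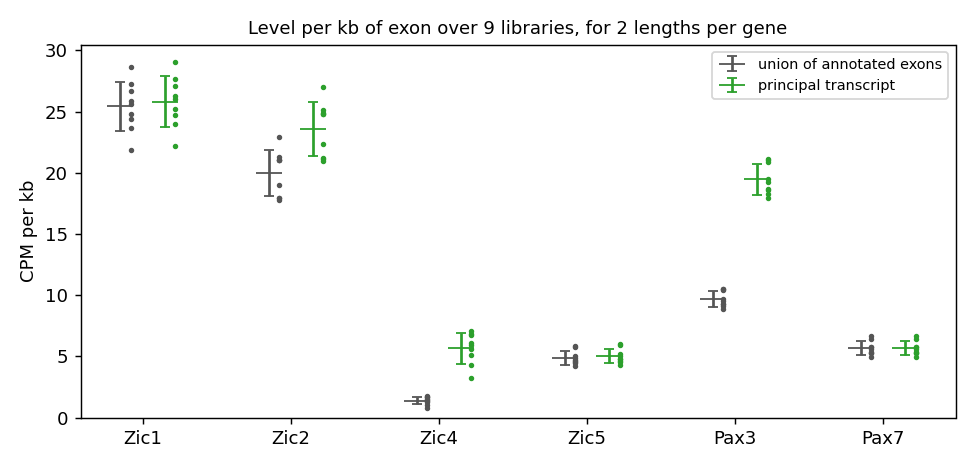
Level of each gene in CPM per kb of exon (vertical axis), for the union of annotated exons and for the principal transcript. Points are the 9 libraries, horizontal marks the mean and bars the SD, and the levels of Zic4, Pax3 and Zic2 moved most with the length, from 1.39 to 5.68, from 9.69 to 19.5 and from 20.0 to 23.6 CPM per kb.

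Zic1, the gene whose loss reduces and misfolds the mouse cerebellum, was at 146, 139 and 141 CPM in wt replicates 1, 2 and 3. It was at 125, 135 and 152 CPM in d9-20 and at 147, 163 and 155 CPM in d28-30. The d9-20 libraries lay on both sides of the wt libraries, while all 3 d28-30 libraries lay above all 3 wt libraries, with 147 CPM beside 146 CPM in the nearest libraries. The log2 fold change was -0.05 ± 0.08 (SE) in d9-20 against wt, with an adjusted p of 1.000 by edgeR's quasi-likelihood test, and 0.13 ± 0.08 in d28-30 against wt, with an adjusted p of 0.612. Between the mutants the log2 difference was -0.18 ± 0.08, d9-20 minus d28-30, with an unadjusted p of 0.0430 and an adjusted p of 0.514.

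Zic4, the partner of Zic1 on chromosome 9, had the widest spread and the largest fold difference of the 6 genes. It was at 17.4, 13.1 and 17.9 CPM in wt, at 11, 8.27 and 15.4 CPM in d9-20, and at 14.3, 17.1 and 15.1 CPM in d28-30. Replicates 1 and 2 of d9-20 were the lowest of the 9 libraries, and wt replicate 2 was the next, so that d9-20 replicate 3 lay within the wt range and the groups overlapped. The log2 fold change in d9-20 against wt was -0.48 ± 0.20, a level 0.718 times that of wt with a 95% interval of 0.528 to 0.974 that takes no account of the number of genes tested. The unadjusted p was 0.0360 and the adjusted p 0.751. Single libraries moved this value, to -0.29 without d9-20 replicate 2 and to -0.74 without d9-20 replicate 3, with adjusted p of 1.000 and 0.200. Taken as pairs by their number, a pairing that no label states, the d9-20 libraries were below wt in 3 of 3 pairs, with log2 differences of -0.66, -0.66 and -0.22. With the number as a block over all 9 libraries, d28-30 included, the log2 fold change was -0.49. Its unadjusted p was 0.0164 and its adjusted p 0.431 by edgeR's test. The pairing was chosen from these same data, so this p is not separate support. Against d28-30 the log2 difference of d9-20 was -0.43 ± 0.20, with an unadjusted p of 0.0568 and an adjusted p of 0.525. In d28-30 against wt it was -0.05 ± 0.20, with an adjusted p of 0.927. The spread of Zic4 between libraries beyond counting error, as a coefficient of variation, was estimated at 0.168, beside 0.0767 for Zic1 and a median of 0.105 over all genes.

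The lower Zic4 libraries were also those with the lowest level of early neuron genes. The summed level of 12 genes of early neurons, among them Tubb3, Elavl3 and Stmn2, was 765, 470 and 707 CPM in wt replicates 1, 2 and 3, 458, 385 and 675 CPM in d9-20, and 795, 712 and 704 CPM in d28-30. The 3 libraries with the lowest sums, wt replicate 2 and d9-20 replicates 1 and 2, were the 3 with the lowest Zic4. This match was not particular to early neurons. The same libraries also had the lowest sums of 10 macrophage genes, at 6.98, 5.06 and 3.38 CPM. Their neural progenitor sums were low as well, at 2255, 2170 and 2037 CPM, with d28-30 replicate 2 among them at 2192 CPM. In d9-20 against wt, 11 of the 12 early neuron genes lay below 0 and none passed the test, with a median log2 fold change of -0.28 beside 0.00 over all genes. With the early neuron share of counts in the model, a covariate added after seeing the data, the log2 fold change of Zic4 in d9-20 against wt was -0.21 with an unadjusted p of 0.164. Between the mutants it was then -0.02, in place of -0.43. All early neuron sums of d9-20 lay below those of d28-30, so this share and genotype cannot be told apart between the mutants. The macrophage and progenitor sums were not tried as covariates. Fewer cells of a type and less RNA per cell cannot be told apart in bulk tissue, and the part of early neuron content in the level of Zic4 was not tested further.

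Genes of other cell types were summed in the same way, and none of those tested passed in either mutant. The summed level of 12 erythroid genes was 6051, 4130 and 7871 CPM in wt, 3671, 4240 and 3661 CPM in d9-20, and 6483, 4334 and 4864 CPM in d28-30. The fold changes of all 12 lay below 0 in d9-20, although wt replicate 2 lay within the range of the d9-20 sums. With the erythroid share in the model, Zic4 in d9-20 against wt was at a log2 fold change of -0.41 with an unadjusted p of 0.178. The summed level of 10 neural progenitor genes, among them Sox2, Nes and Hes5, lay between 2255 and 2753 CPM in wt libraries. It lay between 2037 and 2468 CPM in d9-20 libraries and between 2192 and 2515 CPM in d28-30 libraries, and these ranges overlapped. The largest parts of this sum were Vim, at 840 ± 122 CPM in wt (SD), and Nes, at 702 ± 54.6 CPM in wt.

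Zic2, a gene needed for neural tube closure and for forebrain midline formation in the mouse, was at 54.6, 60.6 and 61.3 CPM in wt, at 51.8, 60.6 and 66.0 CPM in d9-20, and at 51.3, 60.7 and 51.6 CPM in d28-30. The 3 groups overlapped. The log2 fold change was 0.02 ± 0.10 in d9-20 against wt, with a 95% interval of -0.21 to 0.25 and an adjusted p of 1.000. In d28-30 against wt it was -0.11 ± 0.10, with an interval of -0.34 to 0.12 and an adjusted p of 0.700. Zic5, its neighbour on chromosome 14 and also needed for neural tube closure and neural crest development in the mouse, was at 24.8, 28.4 and 20.7 CPM in wt, at 22.1, 23.0 and 23.8 CPM in d9-20, and at 21.7, 28.5 and 22.7 CPM in d28-30. The wt and d28-30 groups spanned nearly the same range, and d9-20 lay inside both. The log2 fold change of Zic5 was -0.10 ± 0.13 in d9-20 and -0.01 ± 0.13 in d28-30 against wt, with adjusted p of 1.000 and 0.974.

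Pax3, the factor whose loss in Splotch mice gives open neural tubes and neural crest defects, was at 64.9, 56.3 and 57.3 CPM in wt, at 57.5, 55.1 and 64.4 CPM in d9-20, and at 60.0, 65.0 and 59.2 CPM in d28-30. Each group held a library near 65 CPM, and all 9 lay between 55.1 and 65.0 CPM. The log2 fold change was -0.01 ± 0.09 in d9-20, with an interval of -0.20 to 0.18, and 0.05 ± 0.09 in d28-30, with an interval of -0.14 to 0.24. Pax7, the close paralog of Pax3 in dorsal progenitors and the cranial neural crest, was at 31.0, 33.0 and 37.4 CPM in wt, at 33.9, 31.4 and 38.9 CPM in d9-20, and at 30.9, 28.9 and 34.0 CPM in d28-30. Replicate 3 was the highest library of Pax7 in each genotype, and the groups overlapped. Its log2 fold change was 0.04 ± 0.11 in d9-20 and -0.11 ± 0.11 in d28-30 against wt. Adjusted p in edgeR's test were 1.000 for both genes in d9-20, and 0.844 for Pax3 and 0.704 for Pax7 in d28-30.

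**Figure D2:**
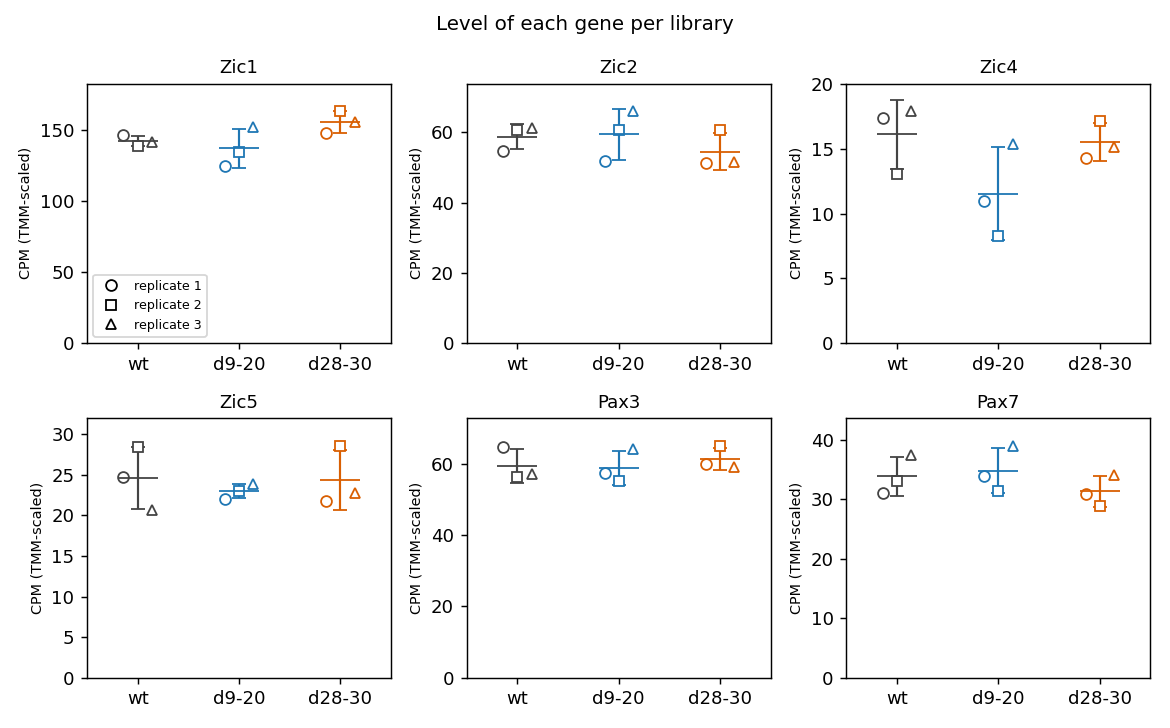
Level of each gene in TMM-scaled CPM (vertical axis, from 0) in every library, by genotype (horizontal axis). Symbols mark replicates 1, 2 and 3, horizontal lines the mean and bars the SD of 3 libraries. The Zic4 panel shows 2 d9-20 libraries, at 11 and 8.27 CPM, below every other library, and the other panels show groups that overlap except d28-30 above wt in Zic1.

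None of the 6 genes passed the threshold of an adjusted p of 0.05 in any comparison. In d9-20 against wt the 6 genes had 0 calls, where 26 of 15695 genes, or 0.166%, were called, and 55 with the replicate number as a block. At an unadjusted p under 0.05 there was 1 of 6, Zic4, beside 935 of all genes tested, or 5.96%. In d28-30 against wt there were 0 calls among them, where 25 genes, or 0.159%, were called. At an unadjusted p under 0.05 there were 0 of 6, beside 1268 of all genes, or 8.08%. Between the mutants no gene of the table was called by edgeR (0%), and DESeq2 called 79 genes. At an unadjusted p under 0.05 in edgeR there was 1 of 6, Zic1, beside 1504 of all genes, or 9.58%. With both mutants averaged against wt, 0 of the 6 were called beside 0.255% of all genes, with adjusted p of 0.958 to 0.984 for the 6. In the test for any difference among the 3 genotypes, 0 of the 6 were called beside 0.166% of all genes, and their adjusted p ran from 0.629 for Zic4 to 0.928 for Pax3. A count of 0 of 6 does not stand apart from these background shares.

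The libraries of d9-20 and wt did not overlap for 0 of the 6 genes, beside 11.2% of all genes tested. Those of d28-30 and wt did not overlap for 1 of 6, Zic1, beside 12.8%, and those of the mutants for 0 of 6, beside 16.8%. The median log2 fold change of the 6 genes was -0.03 in d9-20 and -0.03 in d28-30 against wt, beside 0.00 over all genes in both. The median of absolute log2 fold changes was 0.05 over the 6 genes beside 0.07 over all genes in d9-20, and 0.08 beside 0.13 in d28-30. Both comparisons share the wt libraries. For Zic1, Zic2, Pax3 and Pax7, the 95% intervals against wt lay within levels 0.784 to 1.23 times that of wt in both mutants. The interval of Zic5 was 0.761 to 1.14 in d9-20 and 0.808 to 1.21 in d28-30. The intervals of Zic4 were wider, 0.528 to 0.974 in d9-20 and 0.714 to 1.30 in d28-30.

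**Figure D3:**
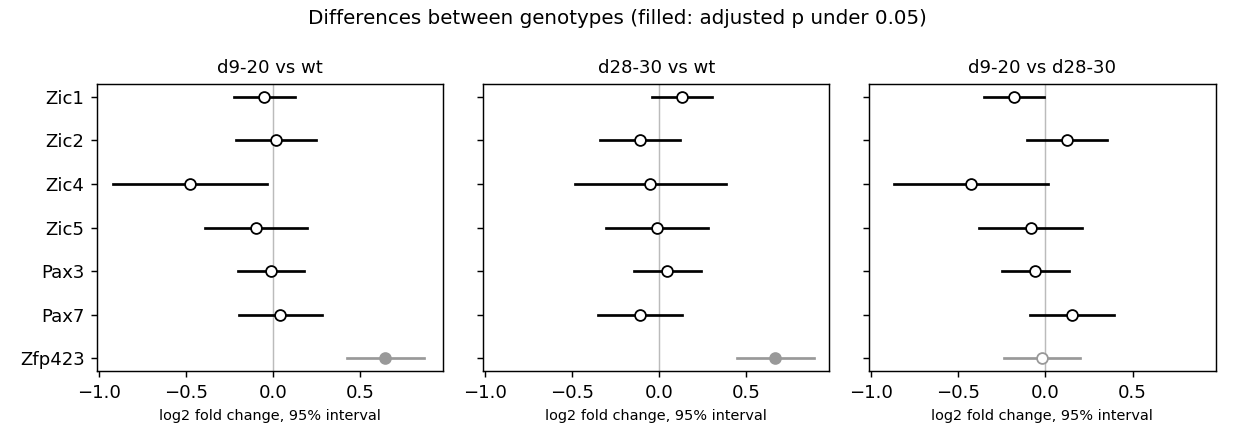
Log2 fold change (horizontal axis) with its 95% interval for each gene in the 3 comparisons, with Zfp423 in grey below. Filled points have an adjusted p under 0.05, and Zfp423 against wt is the only one, at 0.64 in d9-20 and 0.67 in d28-30, calls that held in 9 and 11 of 19 alternatives. The interval of Zic4 in d9-20 against wt, at -0.92 to -0.04, lies below 0 before adjustment.

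The neighbouring and paralogous genes were also set against each other within each library, which takes out library scaling. These ratios were chosen after their values were seen. The Zic4 count was 11.3% ± 1.70 of the Zic1 count in wt (SD, n = 3), 8.36% ± 2.03 in d9-20 and 9.99% ± 0.455 in d28-30. The d9-20 libraries, at 8.82%, 6.15% and 10.1%, overlapped with the wt libraries, at 11.9%, 9.42% and 12.7%, through replicate 3. By pairs of the same number, the percentage was lower in d9-20 in 3 of 3 pairs, with log2 differences of -0.43, -0.62 and -0.32, and the exact two-sided paired permutation p was 0.25, the smallest that 3 pairs allow. The Zic5 count was 42.0% ± 7.19 of the Zic2 count in wt, 38.9% ± 3.35 in d9-20 and 44.5% ± 2.33 in d28-30. The Pax7 count was 57.2% ± 8.84 of the Pax3 count in wt, 58.8% ± 1.71 in d9-20 and 51.1% ± 6.48 in d28-30. All 9 comparisons overlapped, and exact two-sided permutation tests of the log2 ratio, which cannot go below p = 0.1 with 3 against 3 libraries, gave p of 0.2 to 0.8 without pairing, or 0.6 to 0.8 adjusted over the 9.

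**Figure D4:**
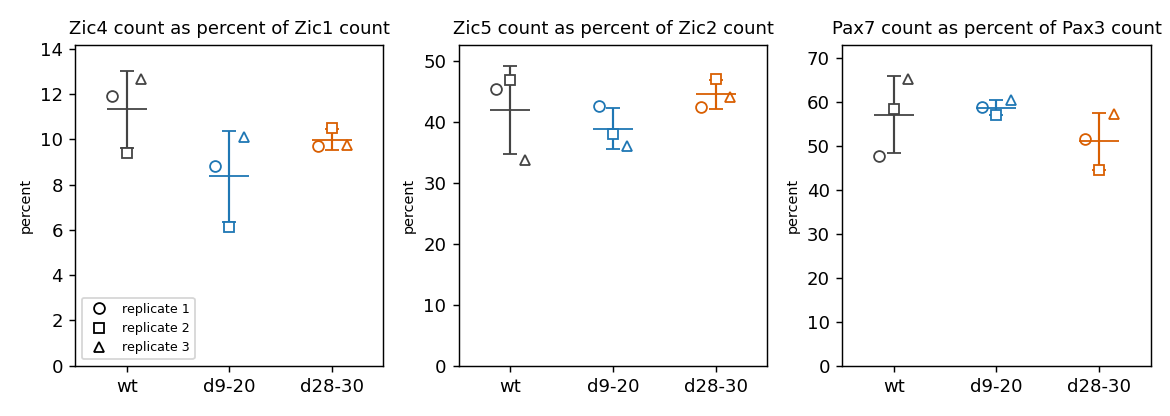
Count of 1 gene as a percentage of the count of its neighbour or paralog in the same library (vertical axis, from 0) by genotype, for Zic4 over Zic1, Zic5 over Zic2 and Pax7 over Pax3. Symbols are replicates 1, 2 and 3, with mean and SD, and the groups overlap in all 3 panels.

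Across the 9 libraries, levels of the 6 genes were compared in 15 pairs by exact permutation. None of the pairs passed an adjusted p of 0.05, with a smallest adjusted p of 0.254, and Pearson's r of log2 CPM ran from -0.47 to 0.70 with a median of 0.18. Zic1 and Pax3 had the highest value, with r = 0.70 (exact permutation p = 0.0337, adjusted 0.254) and Spearman's rho = 0.75 (p = 0.0255, adjusted 0.382), and r = 0.68 without the libraries farthest from the Zic1 median. Zic4 and Pax3 were at r = 0.68, and the neighbours Zic1 and Zic4 at r = 0.67, each with an adjusted p of 0.254. The neighbours Zic2 and Zic5 were at r = 0.35 and the paralogs Pax3 and Pax7 at r = -0.14, both with adjusted p above 0.6. The libraries share their depth, their dissection and their mix of cell types across all genes.

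**Figure D5:**
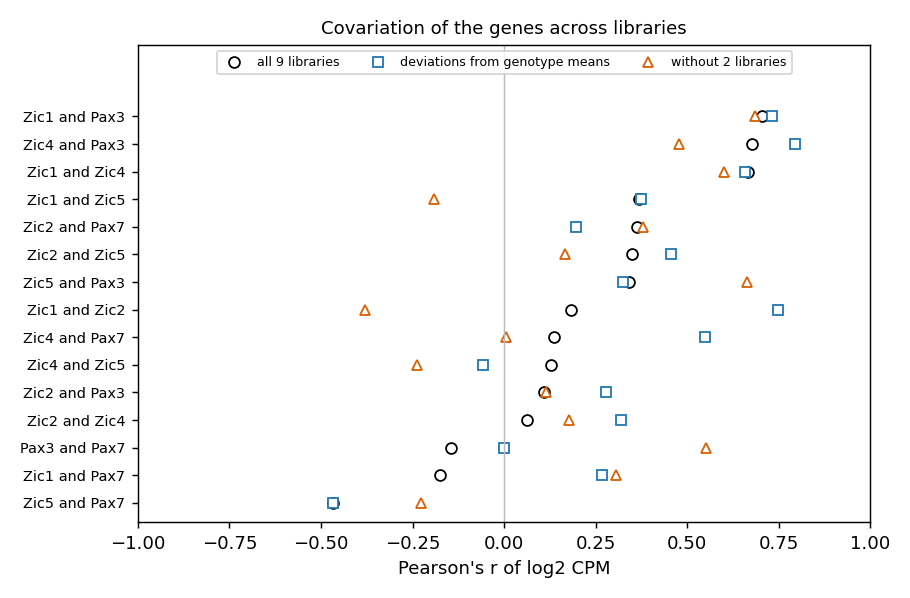
Pearson's r of log2 CPM (horizontal axis) for the 15 pairs of the 6 genes, over all 9 libraries, over deviations from the genotype means, and without the 2 libraries farthest from the median of the first gene. Zic1 with Pax3, Zic4 with Pax3 and Zic1 with Zic4 stay above 0.4 in all 3, and 5 pairs change sign in at least 1.

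The genes most like each member were taken among 10667 tested genes with a mean of at least 5 CPM, as the highest r of log2 CPM over the 9 libraries, with no test. For Zic1 these were Gnb4 (r = 0.94), Sesn1, Nrsn1, Epb41l3 and App. For Zic2 they were Ube2q1 (r = 0.94), Eif3f, Cox5a, Sap30 and Tbc1d7. For Zic4 they were Magi1 (r = 0.98), Fabp7 (r = 0.98), a fatty acid binding protein of neural progenitors and radial glia, Frmd4a, Chst15 and Rassf4. For Zic5 they were Nceh1 (r = 0.97), Rfwd2, Ldb2, Hmcn1 and Lum. For Pax3 they were Isl1 (r = 0.92), a homeodomain factor of motor and sensory neurons, Coro2a, Svil, Tnik and Fam212b, and for Pax7 they were Dennd2a (r = 0.98), Nrde2, Nisch, Plec and Pml. No member was among the 5 nearest genes of another. Pax3 ranked 322 of 10667 in likeness to Zic1, and Zic1 ranked 629 in likeness to Zic4.

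Of the other neural Pax genes Pax2, Pax5, Pax6 and Pax8, 0 of 4 passed the test in either mutant. Among these 4, Pax2, a gene of the midbrain-hindbrain boundary, had the smallest p in d9-20, with a log2 fold change of 0.38 ± 0.13 and an adjusted p of 0.545, from 8.37 ± 1.15 CPM in wt to 10.8 ± 0.793 CPM. Of the 6 GLI and GLIS genes, which encode zinc fingers related to those of the Zic proteins, 0 of 6 passed in either mutant. Glis1 had the smallest p of these, at a log2 fold change of 0.64 ± 0.19 in d9-20 and 0.57 ± 0.19 in d28-30, with adjusted p of 0.409 and 0.501.

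Of 10 tested genes described as regulated by PAX3 or PAX7, 1 fell in each mutant and 0 rose. That gene was Msx2, a homeodomain factor and BMP target described as repressed by PAX3 in the mouse, at 27.3 ± 1.09 CPM in wt, 17.6 ± 1.03 in d9-20 and 17.1 ± 1.70 in d28-30. Its log2 fold change was -0.63 ± 0.10 in d9-20 (adjusted p = 0.0360) and -0.67 ± 0.10 in d28-30 (adjusted p = 0.0226). The call on Msx2 held in 9 of 19 alternatives in d9-20 and in 11 of 19 in d28-30. Among those that lost it were the fits without any 1 library of the genotypes compared, except d28-30 replicate 2. In d9-20 it was also lost with each cell type or sex covariate. The adjusted p of Msx2 went up to 0.215 in d9-20 and 0.126 in d28-30. Its log2 fold change lay between -0.73 and -0.58 in the alternatives tried. With both mutants averaged against wt, the log2 fold change of Msx2 was -0.65 ± 0.08, with an adjusted p of 0.00823. That call held in 16 of 18 alternatives, with adjusted p up to 0.0604. Of the other genes in this list, Itm2a, a membrane protein gene described as a PAX3 target in muscle precursors, had the smallest p, at 0.29 ± 0.09 in d9-20 and 0.33 ± 0.09 in d28-30, with adjusted p of 0.452 and 0.342. The median log2 fold change over the 10 was 0.13 in d9-20 and 0.05 in d28-30.

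Msx2 was also the 1 called gene among 15 tested dorsal progenitor and rhombic lip factors in each mutant. In this list 13 of 15 lay below 0 in d9-20, with a median log2 fold change of -0.25, and 9 of 15 in d28-30, with a median of -0.04. Olig3, which encodes a dorsal progenitor factor, had a level of 32.0 ± 1.47 CPM in wt, 21.6 ± 4.15 in d9-20 and 23.2 ± 1.24 in d28-30, with adjusted p of 0.146 and 0.328. Msx3, a homeodomain gene of the dorsal neural tube, was at 53.5 ± 4.29, 44.9 ± 3.44 and 40.7 ± 1.96 CPM, with adjusted p of 0.577 and 0.191. Of 12 roof plate genes 0 passed in either mutant, 9 of 12 lay below 0 in each, and the medians were -0.24 and -0.16. With both mutants averaged, Bmp6, which encodes a BMP ligand, fell by 0.85 on the log2 scale with an adjusted p of 0.0475. This call was lost in most alternatives, with adjusted p up to 0.293, among them each one that left out a wt library.

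The signals that pattern the dorsal neural tube were counted in the same way. Of 14 BMP ligands and targets, 1 fell in each mutant, again Msx2, and 0 rose. Of 14 WNT ligands and targets, 0 passed in d9-20 and 1 rose in d28-30. This was Wnt3, a WNT ligand, at 10.3 ± 1.09 CPM in wt, 16.5 ± 4.35 in d9-20 and 23.0 ± 1.23 in d28-30. In d9-20 its log2 fold change was 0.68 ± 0.17 with an adjusted p of 0.236. With both mutants averaged, Wnt3 rose by 0.92 ± 0.15 with an adjusted p of 0.0348. This averaged call held in 10 of 18 alternatives, with adjusted p up to 0.243. In d28-30 the log2 fold change was 1.16 ± 0.17 with an adjusted p of 0.0213, and the call was lost without any 1 wt library or without d28-30 replicate 1 or 3, with adjusted p up to 0.139. Wnt1, a ligand of the roof plate and isthmus, was at 24.9 ± 4.08 CPM in wt, 17.3 ± 2.18 in d9-20 and 11.8 ± 2.73 in d28-30, with adjusted p of 0.558 and 0.0527. Pax3 and Pax7 also mark the neural crest, whose 14 genes, among them Sox10, Foxd3 and Tfap2a, had sums between 1342 and 1477 CPM in wt libraries, between 1380 and 1639 in d9-20 libraries and between 1178 and 1336 in d28-30 libraries. Most of this sum was Crabp1, a retinoic acid binding protein gene, at 941 ± 59.3 CPM in wt, 969 ± 107 in d9-20 and 781 ± 92.7 in d28-30. Of the 13 tested, 0 passed in either mutant, 12 lay above 0 in d9-20, with a median log2 fold change of 0.23, and 8 in d28-30, with a median of 0.03. Markers of somites and muscle precursors, the other embryonic site of Pax3 and Pax7, had sums between 30.1 and 39.7 CPM in wt libraries, between 36.4 and 55.3 in d9-20 libraries and between 30.6 and 36.2 in d28-30 libraries. The part of these cell types in the levels of Pax3 and Pax7 was not tested.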

How the data were processed

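Hindbrain RNA from 9 libraries was measured as read counts per gene, which the authors deposited unnormalized in 1 table of all libraries. Per the labels' protocols, total RNA from spin columns went into stranded TruSeq libraries, sequenced as single 75-nucleotide reads. The submitters' processing notes name STAR 2.5.3a, featureCounts and limma, with GRCm38 (mm10). Strand setting, annotation and handling of multi-mapping reads: not given in the sources used here. Replicates 1 and 2 carry these numbers in their titles. Replicate 3 is the library whose title has no number.

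Counts were filtered with filterByExpr, scaled with TMM factors and fitted over all 9 libraries with edgeR 4.0.16 (R 4.3.3) in a quasi-likelihood model of genotype, with p adjusted by Benjamini-Hochberg over 15695 genes. The standard error is the absolute log2 fold change over the square root of F. The code was tested on simulated data. Correlations used log2 CPM with a prior count of 2 and exact permutation in SciPy 1.17.1. Positions and transcripts are those of GENCODE M21. Alternatives used DESeq2 1.42.0, limma 3.58.1 and other scalings, filters and covariates. The 6 genes are named in every comparison, and other lists give counts and up to 3 genes with the smallest p in any comparison. The members and lists were chosen with earlier results of these data known. A gene of the lists is not reported here. Where a paragraph gives an adjusted p, it is that of edgeR's test unless a permutation is named.

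The numbers in the titles were taken to pair d9-20 with wt, a choice made from these same data. Same-numbered libraries of these genotypes deviated together from their genotype means in every pair, with correlations of 0.133, 0.269 and 0.494. Libraries of unlike number were not compared in this way, so these values do not establish a pairing. No label says that a number marks a litter or batch. With the number as a replicate block, 55 genes in place of 26 were called in d9-20 against wt, and Zic4 was at -0.49 with an adjusted p of 0.431.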

Additional observations from a re-analysis of the deposited data

How the results depend on the processing

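None of the 6 genes passed the threshold in any of the alternatives tried, and the lowest adjusted p was 0.200, for Zic4 in d9-20 against wt without d9-20 replicate 3, at a log2 fold change of -0.74. Zic4 in that comparison stayed below 0 in all 19 alternatives, between -0.74 and -0.21. The counts of genes called depended on the choices. In the order d9-20 against wt, d28-30 against wt, the mutants against each other, both mutants against wt and any difference, they were 148, 98, 133, 113 and 270 with no filter beyond 1 count, and 122, 95, 79, 117 and 196 with DESeq2. They were 55, 48, 2, 69 and 55 with the replicate block. With the Y-linked covariate 13 were called in d9-20 against wt, 19 with both mutants and 16 for any difference, and with the erythroid share 5 in d9-20 against wt and 25 with both mutants. With only the genotypes compared in the fit, 40 were called for d9-20 and 12 for d28-30 against wt. Leaving out 1 library gave 6 to 93, 10 to 33, 0 to 4, 14 to 75 and 10 to 62. The cause was not tested.

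Values near 0 changed sign. With the Y-linked covariate Pax3 was at 0.0094 in d9-20, Zic4 at 0.0070 and Zic5 at 0.016 in d28-30 and Zic2 at 0.0086 with both mutants. With the erythroid share Zic2 was at -0.038 in d9-20 and Pax7 at 0.0076 with both mutants. With the early neuron share, chosen after seeing the data, Zic1 was at 0.0040 and Pax3 at 0.070 in d9-20, Zic5 at 0.028 in d28-30 and Pax3 at 0.068 between the mutants. Leaving out 1 library moved, in d9-20, Zic1 between -0.13 and 0.0066, Zic2 between -0.064 and 0.099, Zic5 between -0.21 and 0.014, Pax3 between -0.078 and 0.048 and Pax7 between -0.047 and 0.12. In d28-30 it moved Zic4 between -0.19 and 0.023 and Zic5 between -0.15 and 0.095. Between the mutants Zic5 ran from -0.15 to 0.044. With both mutants Zic1 ran from -0.0028 to 0.068, Zic5 from -0.17 to 0.054, Pax3 from -0.024 to 0.080 and Pax7 from -0.099 to 0.040. Over all alternatives tried, Zic5 went lower than when 1 library was left out. It reached -0.38 in d9-20 against wt, -0.28 between the mutants and -0.24 with both mutants. Correlations changed sign without the 2 libraries farthest from the median for Zic1 with Zic2 (-0.38), Zic1 with Zic5 (-0.19), Zic1 with Pax7 (0.31), Zic4 with Zic5 (-0.24) and Pax3 with Pax7 (0.55), and over deviations for Zic1 with Pax7 (0.27), Zic4 with Zic5 (-0.058) and Pax3 with Pax7 (7.56e-05).

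For the pairing of libraries, same-numbered libraries deviated with correlations of -0.211 to 0.243 between d28-30 and wt and 0.0951 to 0.229 between the mutants, so those numbers were not taken as pairs. The replicate block covered the d28-30 libraries all the same, and it changed no call on the 6 genes. Zic4, at 164 to 407 counts per library, was the least deeply counted of them.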
